A study of Mus musculus with 6 samples.

Results

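The genes analysed here encode the sterol regulatory element-binding proteins (SREBPs), the proteins that control them, and the enzymes that make cholesterol and fatty acids. The list was a fixed set of 36 gene symbols, chosen with earlier results of these data known. Its shares set beside those of all genes therefore only describe the list. Of the 36, 35, all but Hmgcs1, were matched by Ensembl identifier to rows of a table of 37991 genes. The level of Hmgcs1 was not analysed here, but its promoter is part of the motif search below. All 35 passed the filter on low counts and were among the 19480 genes tested.

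RNA came from cells labelled as bone endothelial cells (BECs) of c57/Bl6 mice aged 12 weeks. No treatment or altered gene is named in the labels, and 3 libraries are labelled female and 3 male. Cells were taken by their endomucin, a surface protein of bone capillaries and veins, from the tibia per the labels, while the study's methods name tibiae and femurs. The methods also state that the samples with the best RNA of each set were sequenced. The labels do not say whether each library is 1 mouse, so p-values measure the spread between these libraries. Libraries held between 47678806 and 58325745 counts, and levels are given as CPM, the counts of a gene scaled to a common library total after TMM normalization. A count of 3, the smallest level taken as detectable, was between 0.0514 and 0.0629 CPM, a floor that covers counting error only.

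Cells make cholesterol when sterols run low. SCAP then escorts the SREBP precursors from the endoplasmic reticulum to the Golgi, where they are cut to release transcription factors, while INSIG proteins hold SCAP back when sterols are plentiful. SREBP-2, from Srebf2, acts mainly on cholesterol genes and SREBP-1, from Srebf1, mainly on fatty acid genes. Insig1 is itself a target, which closes a feedback loop.

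The labelled cell type was checked with marker genes before the results. The 10 endothelial markers, all detected in every library, summed to between 181 and 406 CPM, and Emcn, the gene of endomucin, lay between 3.085 and 10.5 CPM. The 10 neutrophil markers summed to between 17848 and 41860 CPM, the 10 erythroid markers to between 12252 and 27267 and the 10 macrophage markers to between 3211 and 5098. These sums are not scaled to transcript length. The libraries thus held RNA of other marrow cells beside that of endothelial cells. In such bulk RNA, fewer cells of a type and less RNA per cell cannot be told apart, and a synthesis gene cannot be assigned to one cell type.

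SREBPs bind sterol response elements and E-boxes in promoters, often beside CCAAT boxes, which bind the partner factor NF-Y. RefSeq promoter windows (GRCm38.p6) were found for 29 of the 36 genes, as 39 windows of the 250 bases before a gene start. On either strand, CCAAT was present in 25 of the 39 windows (64.1%), against 33.8% of 32536 windows of genes on the other chromosomes. The E-box CACGTG was in 6 (15.4%), against 6.04%, and the sterol response element core TCACNCCAC in 1, that of Hmgcs1, against 1.04%. A match describes letters in a window and is not a shown binding site. A window without a match may still hold a site, since only these exact patterns were searched. The windows below belong to the genes with a searched window whose male libraries all lay below the female libraries (Insig1, Fasn, Nsdhl and Elovl5). Msmo1, whose male mean was higher and whose sexes overlapped, is given for comparison. They read 5′ to 3′ on the strand of the gene, with matches in capitals, and a CCAAT box on the other strand reads ATTGG. Insig1 (chr5:28071162-28071411, plus strand) has an E-box starting 101 bases before the gene start and a CCAAT box on the other strand starting 216 bases before it. Fasn (chr11:120824548-120824797, minus strand) has 3 CCAAT boxes, a pair of which overlap on opposite strands and print as one run of capitals. Nsdhl (chrX:72918271-72918520, plus strand) has 2, Elovl5 (chr9:77917115-77917364, plus strand) has 2 and an E-box, and Msmo1 (chr8:64733579-64733828, minus strand) has 3.
Insig1: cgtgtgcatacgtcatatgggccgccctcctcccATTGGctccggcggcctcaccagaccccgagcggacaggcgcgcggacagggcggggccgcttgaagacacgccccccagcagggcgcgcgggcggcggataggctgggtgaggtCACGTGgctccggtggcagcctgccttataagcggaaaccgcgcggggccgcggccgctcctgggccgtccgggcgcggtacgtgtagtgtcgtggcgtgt
Fasn: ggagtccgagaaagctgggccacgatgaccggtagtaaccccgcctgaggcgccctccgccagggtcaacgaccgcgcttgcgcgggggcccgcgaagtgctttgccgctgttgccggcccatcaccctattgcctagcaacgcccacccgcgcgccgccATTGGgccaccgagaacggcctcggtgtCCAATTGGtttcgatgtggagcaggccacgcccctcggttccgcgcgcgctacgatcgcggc
Nsdhl: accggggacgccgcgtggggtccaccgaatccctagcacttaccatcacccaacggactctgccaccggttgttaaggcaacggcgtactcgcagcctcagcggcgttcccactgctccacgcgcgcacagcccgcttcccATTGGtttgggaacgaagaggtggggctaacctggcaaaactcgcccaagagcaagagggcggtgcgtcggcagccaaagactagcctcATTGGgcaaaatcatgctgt
Elovl5: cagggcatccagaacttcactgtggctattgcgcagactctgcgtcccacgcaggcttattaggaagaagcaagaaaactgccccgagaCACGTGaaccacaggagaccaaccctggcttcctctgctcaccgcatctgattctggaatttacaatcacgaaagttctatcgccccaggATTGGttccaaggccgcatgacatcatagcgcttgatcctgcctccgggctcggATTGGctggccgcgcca
Msmo1: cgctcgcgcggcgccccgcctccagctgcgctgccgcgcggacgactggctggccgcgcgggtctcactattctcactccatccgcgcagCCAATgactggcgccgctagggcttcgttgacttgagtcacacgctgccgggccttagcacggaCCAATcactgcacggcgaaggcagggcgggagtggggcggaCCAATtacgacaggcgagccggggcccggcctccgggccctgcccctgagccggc

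Levels of different genes were compared as CPM per kilobase of the Ensembl canonical transcript, averaged over the 6 libraries. Scd1, a stearoyl-CoA desaturase that makes monounsaturated fatty acids, was the most abundant at 64.5 CPM per kilobase, above 94.5% of the 14333 protein-coding genes tested. It alone held 25.0% of the CPM summed over the 35 genes. Acly, which makes cytosolic acetyl-CoA from citrate, followed at 35.0, Srebf2 at 24.2, the elongase Elovl1 at 20.5 and Ebp, a sterol isomerase, at 16.8. The lowest were Acacb, the acetyl-CoA carboxylase tied to mitochondria, at 0.179, Me1, a malic enzyme that supplies NADPH, at 0.884, and Fads2 at 1.01. Enzymes of cholesterol synthesis were spread over most of this order, from 16.8 for Ebp to 1.15 for Lss.

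**Figure D1:**
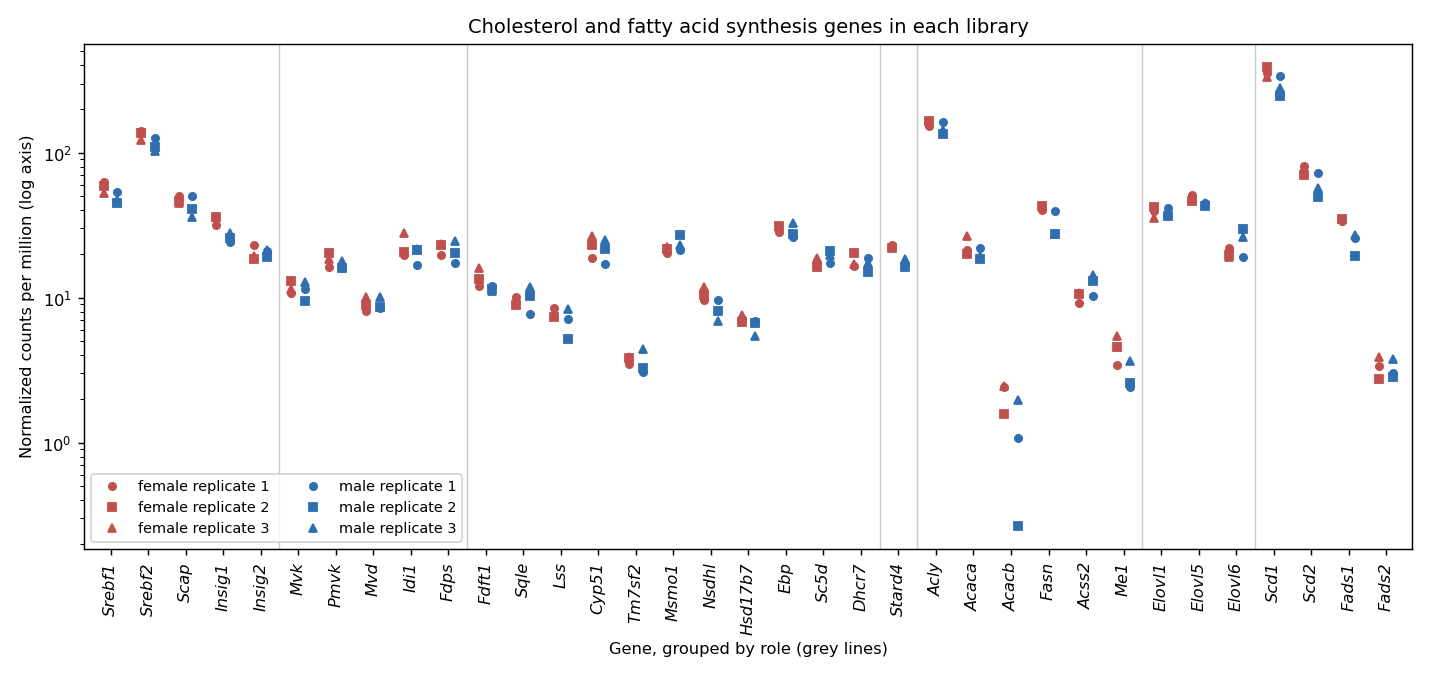
Normalized CPM (log axis) of the 35 genes in the 3 female (red) and 3 male (blue) libraries, grouped by role from the SREBP regulators on the left to the desaturases on the right. Scd1 lies highest, between 244.7 and 390.5 CPM, and Acacb lowest, with male replicate 2 at 0.264 CPM.

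The comparison asked whether these genes differ between the male and female libraries, which held RNA of several marrow cell types. No gene of the 35 passed an adjusted p of 0.05 in edgeR's quasi-likelihood test, where 0.0411% of all genes tested did, and none passed in DESeq2's Wald test, where 1.92% did. At an unadjusted p under 0.05, 6 genes (17.1%) differed in edgeR's test, Insig1, Stard4, Fads1, Fasn, Me1 and Scd2, and all 6 lay lower in males, where 4.76% of all genes tested did so and 9.79% passed in either direction. DESeq2's test gave 7, all lower in males (background 5.06%), Scd1 being the further gene. The median log2 fold change of males over females was -0.14 over the 35 genes and -0.001 over all genes tested, and 27 of the 35 (77.1%) were below 0, against 50.2% of all genes. Male libraries all lay below female libraries for 6 of the 35 (17.1%, against 7.29% of all genes), and for none did they all lie above (against 7.25%). Without male replicate 1 the count at an unadjusted p under 0.05 was 11 (background 10.5%), with 9 lower in males (background 4.71%), and without male replicate 2 it was 3, all lower (background 2.13%).

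**Figure D2:**
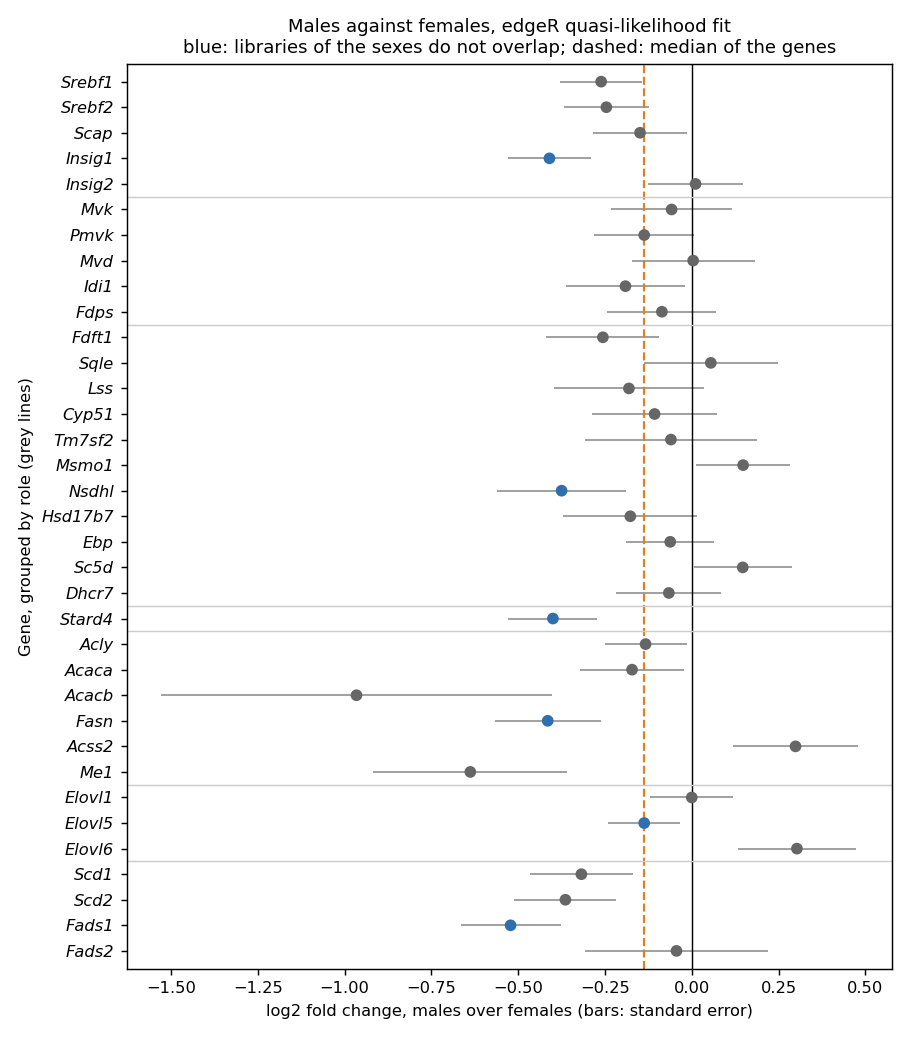
Log2 fold change of males over females for each of the 35 genes with its standard error, by role. Most points lie left of 0, the dashed line marks the median of -0.14, and the 6 blue points are the genes whose male libraries all lay below the female libraries.

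Among the 5 regulators, the median log2 fold change was -0.25. Srebf1 had 62.9, 58.7 and 53.1 CPM in female replicates 1, 2 and 3 and 53.4, 45.0 and 47.5 in the males, a log2 fold change of -0.26 (SE 0.119, adjusted p = 0.512 from edgeR). Srebf2 had 140.1, 137 and 123 in females and 126, 109 and 103 in males, a log2 fold change of -0.25 (SE 0.122, adjusted p = 0.552 from edgeR). For both, male replicate 1 lay inside the female range and the other males below it. Counted per kilobase, Srebf2 stood at 1.96 ± 0.0489 times Srebf1 in females and 1.98 ± 0.109 times in males (SD, n = 3), and the sexes overlapped. Scap, which encodes the escort, had 50.2, 46.1 and 44.7 CPM in females and 50.0, 41.0 and 36.1 in males (log2 fold change -0.15, SE 0.136), with overlapping sexes. In GENCODE M39, exons of Scap share 1280 bases and those of Srebf2 996 with genes on the opposite strand.

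Of the INSIG genes, Insig1, on chromosome 5 of GRCm39 from 28276315 to 28283668, had 31.9, 35.8 and 35.8 CPM in females and 24.1, 25.9 and 27.9 in males. All males lay below all females, and the log2 fold change was -0.41 (SE 0.119, unadjusted p = 0.00622, adjusted p = 0.288 from edgeR). It stayed between -0.47 and -0.36 with each library left out in turn. Insig2, the other INSIG gene, had 23.0, 18.5 and 19.5 CPM in females and 20.9, 19.2 and 21.3 in males, a log2 fold change of 0.01 (SE 0.138). Its sign turned with total counts alone and when single libraries were left out. Per kilobase, the ratio of Insig1 to Insig2 was 1.42, 1.98 and 1.87 in the female libraries and 1.18, 1.37 and 1.33 in the male libraries, without overlap but with female replicate 1 close to male replicate 2, and the difference between the genes was not tested. This ratio within a library does not depend on the scaling of the libraries.

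The mevalonate steps turn acetyl-CoA into the farnesyl diphosphate from which sterols and prenyl groups are built. None of the 5 genes measured passed an unadjusted p of 0.05 in edgeR's test, and their median log2 fold change was -0.09, between -0.20 (without male replicate 3) and -0.04 (without female replicate 3) with each library left out. The most abundant per kilobase was Fdps, farnesyl diphosphate synthase, with 19.6, 23.1 and 23.3 CPM in females and 17.4, 20.2 and 24.4 in males. Idi1, isopentenyl-diphosphate isomerase, had the largest fold change with all libraries, with 19.7, 20.8 and 28.0 in females and 16.9, 21.3 and 21.8 in males, a log2 fold change of -0.19 (SE 0.172). Without female replicate 3 it was -0.02, and without male replicate 1 it was -0.08. In both genes replicate 1 was the lowest library of each sex. Pmvk, Mvk and Mvd, the kinases and the decarboxylase between mevalonate and isopentenyl diphosphate, had log2 fold changes of -0.14, -0.06 and 0.00.

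The 11 sterol enzymes run from squalene synthase to the last reductases before cholesterol. None had an unadjusted p under 0.05 in edgeR's test, the median log2 fold change was -0.07, and the CPM summed over them was 162 ± 9.94 in females and 157 ± 9.07 in males (SD, n = 3). Nsdhl, an X-linked dehydrogenase that removes sterol methyl groups, had the largest difference, with 9.69, 10.4 and 11.8 CPM in females and 9.61, 8.14 and 6.87 in males. Its log2 fold change was -0.38 (SE 0.187, unadjusted p = 0.0720), and the sexes did not overlap, with male replicate 1 just below female replicate 1. Ebp, the most abundant per kilobase and also X-linked, had 28.3, 31.2 and 30.5 in females and 26.3, 27.3 and 32.5 in males. Fdft1, squalene synthase, Lss, lanosterol synthase, and Hsd17b7, a sterol ketoreductase, had log2 fold changes of -0.26, -0.18 and -0.18. That of Lss was -0.01 without male replicate 2 and -0.34 without male replicate 3, and that of Hsd17b7 was -0.08 without male replicate 3. Cyp51, the lanosterol demethylase, Dhcr7, a final reductase, and Tm7sf2, an earlier one, had -0.11, -0.07 and -0.06. Above 0 lay Msmo1, the methylsterol oxidase, at 0.15, Sc5d, a sterol desaturase, at 0.15, and Sqle, squalene epoxidase, at 0.06. In GENCODE M39, exons of Fdft1 share 1184 bases with Ctsb and those of Nsdhl 331 with Cetn2, on the opposite strand. Those of Cyp51 share 1682 with genes on the opposite strand, and those of Tm7sf2 share 532 with Vps51 on the same strand. Whether reads were counted by strand is not given in the sources used here.

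Stard4 encodes a protein that carries sterols between membranes and is a known SREBP-2 target. It had 23.1, 22.2 and 22.7 CPM in females and 16.8, 16.2 and 18.6 in males. Neither sex spread widely, 22.7 ± 0.454 CPM against 17.2 ± 1.24 (SD, n = 3), and all males lay below all females. The log2 fold change was -0.40 (SE 0.128, unadjusted p = 0.0105, adjusted p = 0.336 from edgeR), between -0.46 and -0.36 with each library left out.

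Of the 6 genes of fatty acid supply and synthesis, 5 had a log2 fold change below 0 and the median was -0.29. Fasn, fatty acid synthase, which builds palmitate, lies on chromosome 11 of GRCm39 from 120696672 to 120715995. It had 40.2, 43.0 and 42.9 CPM in females and 39.5, 27.6 and 27.5 in males. Male replicate 1 lay just under the females and the other males far below, and the log2 fold change was -0.42 (SE 0.153, unadjusted p = 0.0216, adjusted p = 0.403 from edgeR). Left-out libraries moved it between -0.61 and -0.33.

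Me1 had 3.45, 4.56 and 5.43 CPM in females and 2.43, 2.58 and 3.63 in males, from between 127 and 255 reads a library. Male replicate 3 lay above female replicate 1, and the log2 fold change was -0.64 (SE 0.279, unadjusted p = 0.0449, adjusted p = 0.493 from edgeR). Its exons share 2176 bases with other genes on the opposite strand in GENCODE M39. Acacb had the largest fold change of all 35 genes, -0.97 (SE 0.562, unadjusted p = 0.115), with 2.42, 1.57 and 2.47 CPM in females and 1.08, 0.264 and 1.96 in males. Male replicate 2 held 13 reads of it, male replicate 3 lay within the female range, and leaving out single libraries moved the value between -1.67 and -0.50. The cytosolic carboxylase Acaca, which makes malonyl-CoA for synthesis, had a log2 fold change of -0.17 (SE 0.151).

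Acly, the most abundant of this group, had 152, 167 and 166 CPM in females and 162, 135 and 144 in males (log2 fold change -0.13, SE 0.118). As for Fasn, male replicate 1 was at or near the female level and male replicates 2 and 3 were lower. Acss2, which makes acetyl-CoA from acetate, went the other way, with 9.11, 10.6 and 10.8 CPM in females and 10.2, 13.1 and 14.3 in males. Its log2 fold change was 0.30 (SE 0.179, unadjusted p = 0.125 from edgeR). Exons of Acss2 share 2291 bases with 3 genes on the opposite strand in GENCODE M39.

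**Figure D3:**
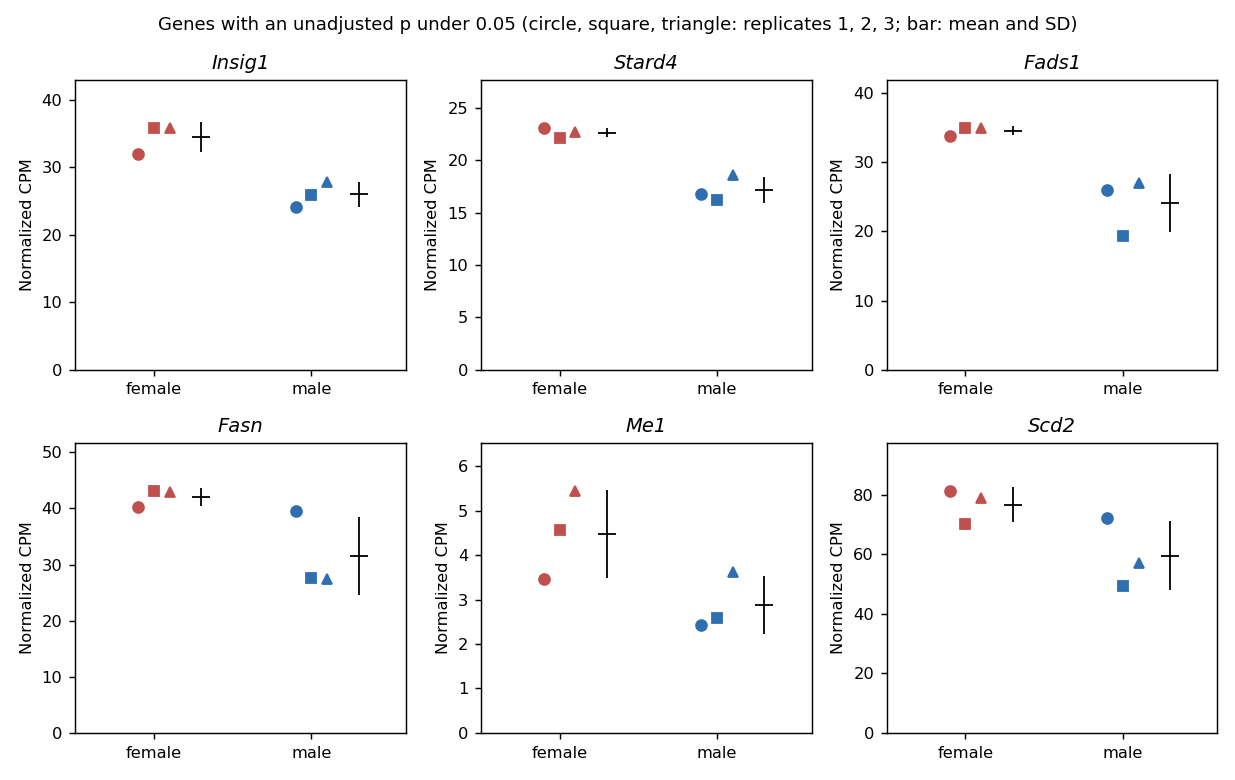
Normalized CPM of the 6 genes with an unadjusted p under 0.05 in edgeR's test, by library, with mean and SD of each sex (n = 3). The sexes do not overlap for Insig1, Stard4, Fads1 and Fasn, and do for Me1 and Scd2, while male replicate 1 (circle) is close to the females for Fasn and Scd2.

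The elongases add carbons to fatty acids. Elovl1, which extends very long saturated chains, had 39.5, 42.5 and 35.2 CPM in females and 41.8, 36.5 and 38.9 in males, a log2 fold change of 0.00 (SE 0.120). Elovl5, which extends polyunsaturated chains, had 50.7, 46.5 and 48.1 in females and 44.7, 42.9 and 44.7 in males. Its male libraries all lay below the females by a small distance (log2 fold change -0.14, SE 0.104, unadjusted p = 0.219). Elovl6, which extends palmitate towards stearate, had the highest fold change of the 35 genes, 0.30 (SE 0.170, unadjusted p = 0.105), with 22.1, 19.6 and 19.2 in females and 19.2, 29.8 and 26.4 in males. Male replicate 1 had as little as the lowest female, and the excess came from male replicates 2 and 3.

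All 4 desaturases had a fold change below 0, with a median of -0.34. Fads1, which completes arachidonic acid, lies on chromosome 19 of GRCm39 from 10160167 to 10174241. It had 33.9, 35.0 and 35.0 CPM in females and 26.0, 19.3 and 27.0 in males. It had the smallest p of the 35 genes, with a log2 fold change of -0.52 (SE 0.144, unadjusted p = 0.00440, adjusted p = 0.259 from edgeR), and all males lay below all females. Its exons share 884 bases with 2 genes on the opposite strand in GENCODE M39. The value stayed between -0.61 and -0.38 with each library left out, and DESeq2's adjusted p was 0.0848. Fads2, the desaturase before it in the same pathway, had 3.36, 2.72 and 3.90 CPM in females and 3.04, 2.84 and 3.80 in males, a log2 fold change of -0.04 (SE 0.263). Per kilobase, Fads1 stood at 9.23, 11.7 and 8.20 times Fads2 in females and 7.82, 6.22 and 6.51 times in males. The sexes did not overlap, but female replicate 3 was close to male replicate 1. Fads2 had between 140 and 211 reads a library, and the difference between the genes was not tested.

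Scd1 lies on chromosome 19 of GRCm39 from 44382894 to 44399154, and Scd2 from 44281613 to 44295303. Scd1 had 354, 390.5 and 334 CPM in females and 339.5, 244.7 and 280.4 in males, a log2 fold change of -0.32 (SE 0.148, unadjusted p = 0.0568, adjusted p = 0.519 from edgeR). Scd2, its neighbour, had 81.2, 70.1 and 78.9 in females and 72.2, 49.5 and 57.1 in males, a log2 fold change of -0.36 (SE 0.147, unadjusted p = 0.0320, adjusted p = 0.450 from edgeR). In both, male replicate 1 lay within the female range and male replicates 2 and 3 below it. Per kilobase, Scd1 stood at 5.13 ± 0.802 times Scd2 in females and 5.27 ± 0.143 times in males (SD, n = 3), with overlap. These paralogs have similar coding sequences, and the counting could have split or dropped reads that fit both.

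The male libraries were not alike. Male replicate 1 lay above the female range for none of the 35 genes, where 25.4% of all genes tested did, below it for 17 (background 27.4%) and within it for 18. Male replicate 2 lay below the female range for 23 genes (background 31.3%) and above it for 5 (background 31.3%), and was the lowest of the 6 libraries for 13 genes, against 21.9% of all genes. Male replicate 3 lay below for 15 (background 27.3%) and above for 8 (background 26%). Summed over the 35 genes, the level was 1370, 1421 and 1369 CPM in females and 1293, 1112 and 1195 in males. By role, male replicate 2 was lowest for the desaturases (316 CPM, against 441 and 368 in male replicates 1 and 3), while male replicate 1 was lowest for the mevalonate steps (70.3 CPM, against 75.7 and 87.1) and the sterol enzymes (147 CPM, against 157 and 165).

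Marker levels of other cells moved with sex in the same libraries. Macrophage markers summed to 5033, 5098 and 4801 CPM in females and 3592, 3211 and 4271 in males, with 8 of 10 lower in all males (background 7.29% of all genes), and endothelial markers to 400.5, 308 and 406 against 242, 181 and 260, with 4 of 10. Neutrophil markers summed to 17848, 21734 and 20968 CPM in females and 30307, 41860 and 37398 in males, with 8 of 10 higher in all males (background 7.25%). Male replicate 2 had the lowest macrophage and endothelial and the highest neutrophil sums. It was the lowest library for 13 of the 35 genes (background 21.9%) and the highest for 3 (background 21.8%). Stromal and adipocyte markers overlapped, at 3879, 2276 and 4167 against 2229, 1517 and 3281 CPM. In that list 3 of 10 markers, Adipoq, Cfd and Plin1, were lower in all males (background 7.29%). Adipoq encodes the adipocyte hormone adiponectin. Cfd averaged 9.31 CPM in females and 0.845 in males. Plin1, which coats the lipid droplets of adipocytes, was between 0.832 and 1.94 CPM in females and at most 0.152 in males. Male replicate 2 held 0 reads of Plin1. Erythroid sums were 12252, 15595 and 17569 CPM in females and 27267, 18566 and 19448 in males, without overlap, and 4 of 10 markers were higher in all males. B cell sums lay between 3098 and 3614 CPM and those of dividing cells between 721 and 940.5, with overlapping sexes. The part of these cells in the lower synthesis genes was not tested.

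**Figure D4:**
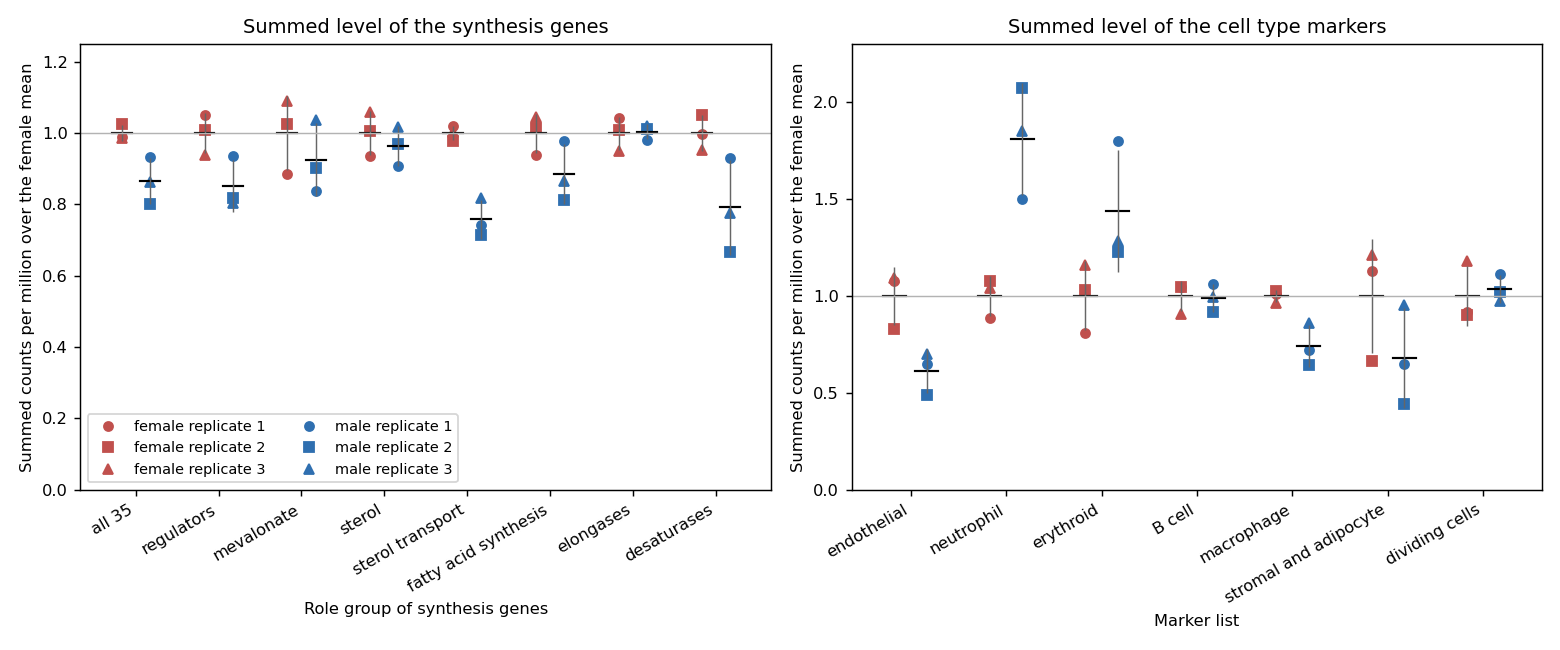
CPM summed over each role group of synthesis genes (left) and over each marker list (right), divided by the female mean, with mean and SD of each sex (n = 3). The male sum over the 35 genes is 86.5% of the female mean, and all males lie below all females for the desaturases, regulators and Stard4, while neutrophil and erythroid markers are above and macrophage and endothelial markers below the females.

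A further 19 genes of the pathway were examined: the proteases that cut SREBPs, the sterol-sensing nuclear receptors LXR and their targets, NF-Y subunits, sterol carriers and other enzymes. None passed an adjusted p of 0.05 in edgeR's or DESeq2's test, 2 had an unadjusted p under 0.05 in edgeR's, both lower in males (background 4.76% lower and 9.79% in either direction), and the median log2 fold change was -0.12. The sexes did not overlap for 3 genes lower in males and 1 higher (background 7.29% and 7.25%). Abcg1, which exports cholesterol and is an LXR target, had 100.2, 97.5 and 90.4 CPM in females and 78.6, 59.3 and 85.4 in males (log2 fold change -0.37, unadjusted p = 0.0270). Abca1, another exporter under LXR, had 104, 97.9 and 103.5 against 95.0, 69.0 and 79.3 (log2 fold change -0.33, unadjusted p = 0.0318). Both had all males below all females. Npc1, which releases cholesterol from lysosomes, had 52.8, 49.7 and 49.4 against 46.9, 37.9 and 44.3 (log2 fold change -0.24, unadjusted p = 0.0717), again without overlap. Elovl7, a further elongase, had 7.09, 4.82 and 6.82 CPM in females and 7.44, 9.38 and 8.14 in males, with all males above all females (log2 fold change 0.41, unadjusted p = 0.0809). The proteases Mbtps1 and Mbtps2 had log2 fold changes of -0.12 and 0.03, and the NF-Y genes Nfya, Nfyb and Nfyc had 0.00, 0.08 and 0.03.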

How the data were processed

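RNA-seq counts of 6 libraries were used. The authors deposited raw counts, a whole number for each gene and library, not normalized or pooled. The paper's methods name STAR on GRCm39 and featureCounts, whereas the submitters' processing notes name TopHat2 2.0.11, mm9 and NCBIM37, and read length, kit and instrument also differ between these sources. Strand setting and annotation release are not given in the sources used here. Symbols, positions and transcript lengths came from GENCODE M39 (31073 of 37991 identifiers matched, 96.2% of counts). In it, 21 of the 35 genes share exon bases with another gene.

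Males were compared with females in edgeR 4.0.16 (R 4.3.3): TMM, the default filter by sex, robust quasi-likelihood test, Benjamini-Hochberg adjustment over 19480 genes. CPM are TMM-normalized, and SE is the log2 fold change over the square root of F. DESeq2 1.42.0 was an alternative, as were other size factors, filters, no robust estimation, the replicate block and left-out libraries. The gene list, role groups, other pathway genes and markers were chosen with earlier results of these data known. Values in every library are given for the regulators, the most abundant gene and the gene with the largest fold change of each role, and genes at an unadjusted p under 0.05; of the other pathway genes, for the 4 with the smallest p, leaving out 1 listed gene that is not reported here. Elovl5, Acss2, Insig2, Fads2, Adipoq, Cfd and Plin1 were given more detail after their values were seen.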

Additional observations from a re-analysis of the deposited data

How the results depend on the processing

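No gene of the 35, and none of the 19 other pathway genes, passed an adjusted p of 0.05 under any alternative run. The number of the 35 at an unadjusted p under 0.05 was 6, and between 3 and 11 with each library left out. The median log2 fold change of the 35 genes stayed between -0.19 and -0.12 with each library left out, that of the sterol enzymes between -0.163 and -0.005 (lowest without male replicate 3), that of the mevalonate genes between -0.20 and -0.04 and that of the elongases between -0.071 and 0.064. Over all genes, 8 passed an adjusted p of 0.05 in edgeR's test, 14 with total counts alone, 98 without a filter, 345 with DESeq2, and between 5 and 96 with each library left out, the highest without male replicate 3.

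The labels number the libraries 1 to 3 in both sexes. Deviations from the sex means of same-numbered libraries correlated at 0.194, 0.040 and 0.298 across genes. For each female replicate this was the highest value among the males. Pairs with different numbers lay between -0.274 and 0.131, and male replicate 2 correlated more with female replicate 1 (0.131) than with female replicate 2. The labels do not say whether the numbers pair the samples. The main test has no block, so its p-values take no account of such a pairing. With the replicate number as a block, 428 of all genes and none of the 35 passed an adjusted p of 0.05, and 10 of the 35 were at an unadjusted p under 0.05, all lower in males (background 7.17%).

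The sign of the log2 fold change turned, for genes near 0, with total counts alone for Insig2 (-0.009), Mvd (-0.008) and Elovl1 (-0.010), and without a filter for Mvd (-0.001) and Elovl1 (-0.006). With each library left out, values ranged from -0.053 to 0.119 for Insig2, -0.169 to 0.052 for Mvk, -0.077 to 0.096 for Mvd, -0.225 to 0.022 for Fdps, -0.093 to 0.207 for Sqle, -0.240 to 0.026 for Cyp51, -0.238 to 0.037 for Tm7sf2, -0.141 to 0.031 for Dhcr7, -0.071 to 0.064 for Elovl1 and -0.179 to 0.083 for Fads2. The cause was not tested. Depth limits Acacb most, with 13 reads in 1 library.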
